A study of Arabidopsis thaliana with 12 samples.

Results

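The genes described here are 10 loci of the phosphate starvation response of Arabidopsis thaliana, taken by locus identifier from the 32833 loci counted in each library. They are the intracellular phosphate sensors SPX1, SPX2 and SPX3, the transport genes PHO1;H1, PHT1;1 and PHT1;4, the ubiquitin conjugase gene PHO2, the acid phosphatase gene PAP17 and the lipid synthesis genes MGD3 and SQD2. Of the 10 genes, 9 had enough counts to enter the test across 19090 genes, and SPX3 did not. RNA had been sequenced from stable transgenic Col-0 lines in 3 groups of 4 libraries. Control plants carried GFP and BAR. The other lines carried GFP fused to Mlp37347 or to Mlp124499, together with BAR. Both are proteins that the rust fungus of poplar, Melampsora larici-populina, is thought to secrete as effectors. All plants had grown in soil at 22 °C with 16 h of light a day, and shoots were pooled for each library 15 days after germination. No phosphate treatment is described, so every group is a line at the phosphate supply of the soil. The promoter of the transgenes and the number of independent transformants behind a line are not stated in the labels. The series title gives the choice of reference genes as its aim, and the comparisons below ask how phosphate starvation genes stood in each effector line against Control and against each other.

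When a plant cell runs short of phosphate, inositol pyrophosphates fall, SPX proteins release the transcription factor PHR1, and PHR1 binds a short DNA motif called P1BS in the promoters of starvation genes. These genes bring phosphate in through PHT1 transporters, free it from organic compounds with secreted phosphatases and nucleases, and replace membrane phospholipids with galactolipids and sulfolipids. PHO2 works the other way: it marks PHO1 and PHT1 proteins for breakdown, and a phosphate-regulated microRNA represses it during starvation.

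The genes that respond to phosphate shortage did not move together in either effector line. PAP17, a purple acid phosphatase induced by phosphate starvation and by senescence, was the single member past the threshold in any comparison, and it stood lower in Mlp37347 than in Mlp124499. SPX1 had all 4 Mlp124499 libraries above all Control and all Mlp37347 libraries but missed the threshold. In 3 of the 4 Mlp37347 libraries PAP17 was low and the lipid genes MGD3 and SQD2 were high. In Mlp37347 4, PAP17 and MGD3 lay inside the Control range and SQD2 lay below it. PHO2 and SPX2 differed little between the lines.

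**Figure D1:**
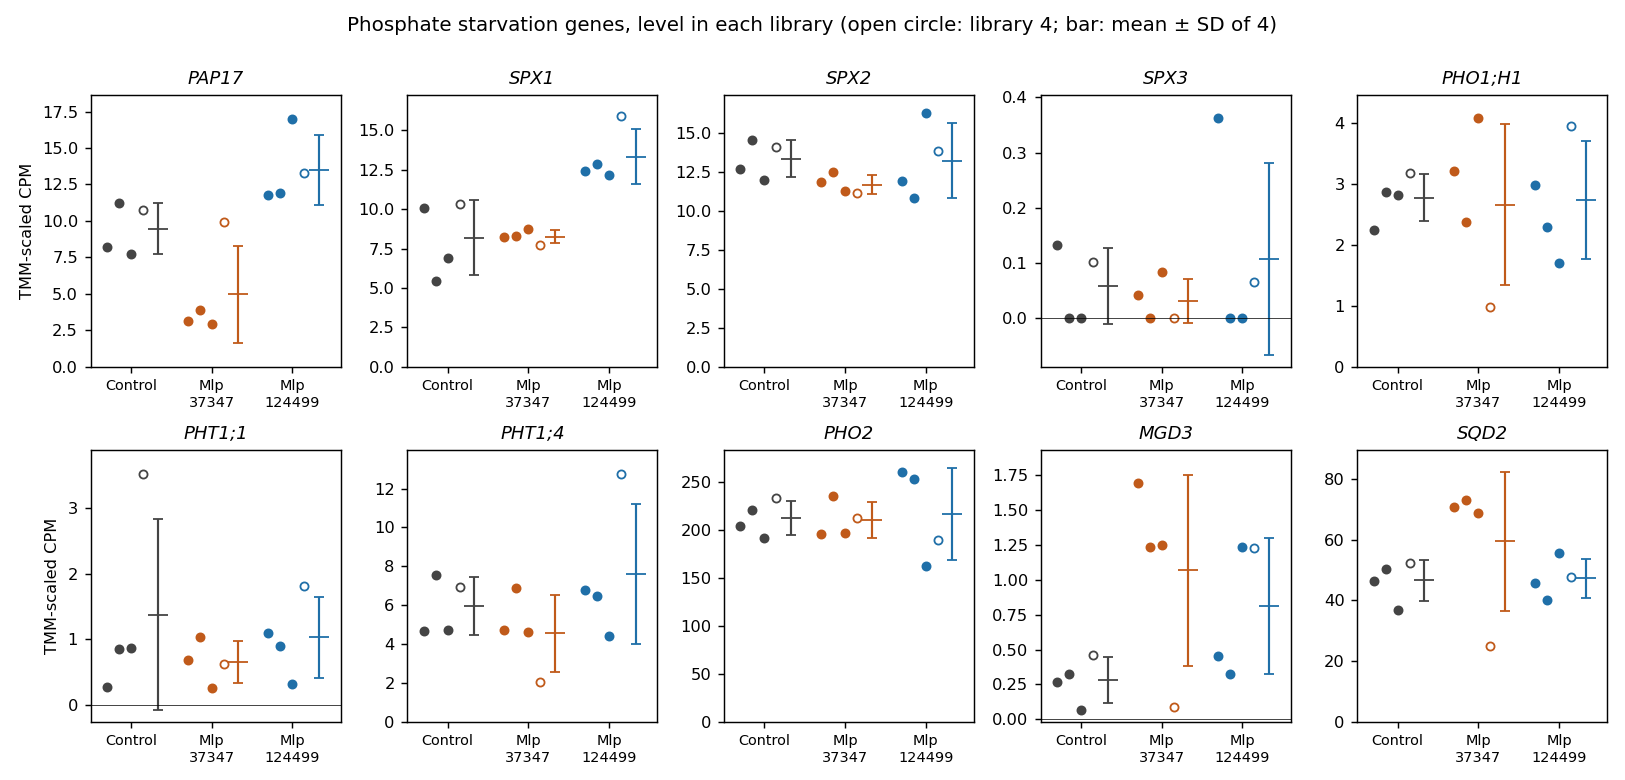
Level of each of the 10 genes in every library, in TMM-scaled counts per 1000000 counts of the library (CPM, vertical axis from 0 or just below), by line; points are libraries, open circles mark library 4 of each line, and bars give the mean ± SD of 4 libraries. Mlp37347 1, 2 and 3 had PAP17 at 2.92 to 3.87 CPM, Mlp37347 4 had it at 9.94 CPM, and SPX1 was at 12.2 CPM or more in every Mlp124499 library.

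Total counts per library, the depth, ranged from 6645703 to 37378917 over Control. Mlp37347 libraries had 12368262 to 24483245 counts, and Mlp124499 libraries had 10813288 to 14733894. At these depths 3 counts, used as a floor for counting error only, were worth 0.0770 to 0.398 CPM. The libraries of a line were not equally alike. By a chi-square of their counts over genes, divided by its degrees of freedom, Mlp37347 1, 2 and 3 were at 2.92 to 6.55 from each other and at 164 to 221 from Mlp37347 4. In Mlp124499 libraries 1 and 2 were at 7.29 and the other pairs at 43.1 to 140, and Control pairs were at 9.19 to 112. Mlp37347 1, 2 and 3 also had a mate inner distance of 110 to 115 bp, against 70 bp in Mlp37347 4 and 50 to 84 bp in the libraries of the other lines, so that for these 3 libraries the distance and the line cannot be told apart. Within lines the distance varied most in Mlp37347, between library 4 and the others. A fit with the distance in the model therefore leans on Mlp37347 4, and also on Control 4, at 84 bp against 50 to 60 bp in the other Control libraries. How much each library weighed in that fit was not computed. That fit and the fit without Mlp37347 4 are not fully separate checks. Only 57.6% of the surviving reads of Control 1 had aligned, against 88.0% to 95.5% in the others. Nothing in the labels shows that libraries of 1 line were grown as separate plant batches. The p-values therefore measure only the spread between these 12 samples, which may be technical. The shoot label was checked against marker genes. The 6 leaf markers summed to 21002 to 41950 CPM in Control, 40799 to 50284 CPM in Mlp37347 and 30885 to 41785 CPM in Mlp124499. The 8 root markers summed to 108 to 220 CPM, 296 to 426 CPM and 194 to 381 CPM in the same order, nearly all of it from PYK10, a beta-glucosidase. The other 7 root markers summed to 2.12 to 5.50, 1.17 to 5.32 and 2.32 to 5.77 CPM, with 4 of the 7 under 1 CPM in every library. The 4 flower markers summed to at most 3.79 CPM. In whole shoots, fewer cells of a type and less RNA per cell cannot be told apart for any gene below.

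Levels between genes were compared as CPM per kilobase of annotated exon, as the median over the 12 libraries. PHO2 was highest at 50.0 (range 39.0 to 62.5), and SQD2 followed at 21.5 (11.04 to 32.1). SPX2, SPX1 and PAP17 stood at 9.49, 7.82 and 6.24, and PHT1;4 at 2.81. PHO1;H1, PHT1;1 and MGD3 stood at 0.891, 0.427 and 0.238 CPM per kilobase, and SPX3 at 0.0231. In this order the range of PHO2 lay above that of its neighbour, whereas from SQD2 downwards each gene's range over the 12 libraries overlapped that of the next.

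Against Control, edgeR's quasi-likelihood test with Benjamini-Hochberg adjustment over the 19090 genes called 0 of the 9 members higher and 0 lower in Mlp37347, and 0 higher and 0 lower in Mlp124499. At an unadjusted p under 0.05 there were 2 of the 9 members in Mlp37347 and 1 in Mlp124499, beside 25.3% and 16.1% of all genes. Over all genes tested, 3.19% were called higher and 5.42% lower in Mlp37347, and 1.56% higher and 2.71% lower in Mlp124499. Both comparisons use the same Control libraries. DESeq2 called 0 members in Mlp37347, where it called 7.05% of all genes higher and 7.88% lower, and 1 higher and 0 lower in Mlp124499, beside 3.4% and 4.6%. With limma voom and sample weights, 3 members were higher and 1 lower in Mlp37347, beside 27.6% and 29.5% of all genes, and 1 was higher and 0 lower in Mlp124499, beside 16.1% and 20.1%. Between the effector lines edgeR called 1 of 9 members lower in Mlp37347 and 0 higher, against 1.59% and 1.1% of all genes, and 2 of 9 members had an unadjusted p under 0.05, beside 17.6% of all genes. DESeq2 called 0 higher and 2 lower there, beside 3.6% and 3.72% of all genes, and limma voom 2 higher and 3 lower, beside 27.3% and 27%. The median log2 fold change of the 9 members was -0.07 in Mlp37347 against Control, 0.03 in Mlp124499 against Control and -0.18 in Mlp37347 against Mlp124499, beside 0.01, -0.01 and 0.02 for all genes.

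The ranges of the 4 libraries were apart for 0 of the 9 members between Mlp37347 and Control, where this held for 19.2% of all genes. They were apart for 2 of 9, PAP17 and SPX1, between Mlp124499 and Control (11% of all genes) and again for PAP17 and SPX1 between the effector lines (10.9%). Scaling by total counts in place of TMM shifted the median of all genes to -0.19 in Mlp37347 against Control and to -0.13 between the effector lines. It also changed the split of calls in Mlp37347 against Control from 609 higher and 1035 lower to 351 higher and 1900 lower.

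Without Mlp37347 4 the same fit tested 19382 genes and called 2 members, MGD3 and SQD2, higher and 1, PAP17, lower in Mlp37347 against Control, beside 11.6% of all genes higher and 11.1% lower. Between the effector lines it called SQD2 higher and PAP17 lower in Mlp37347, beside 7.26% and 7.2% of all genes. In Mlp124499 against Control it called 1 member, SPX1, higher and 0 lower, beside 3.76% and 4.28%. Without that library, calls over all genes in Mlp37347 against Control went from 609 to 2245 higher and from 1035 to 2158 lower, so the members' calls grew along with those of the whole transcriptome.

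**Figure D2:**
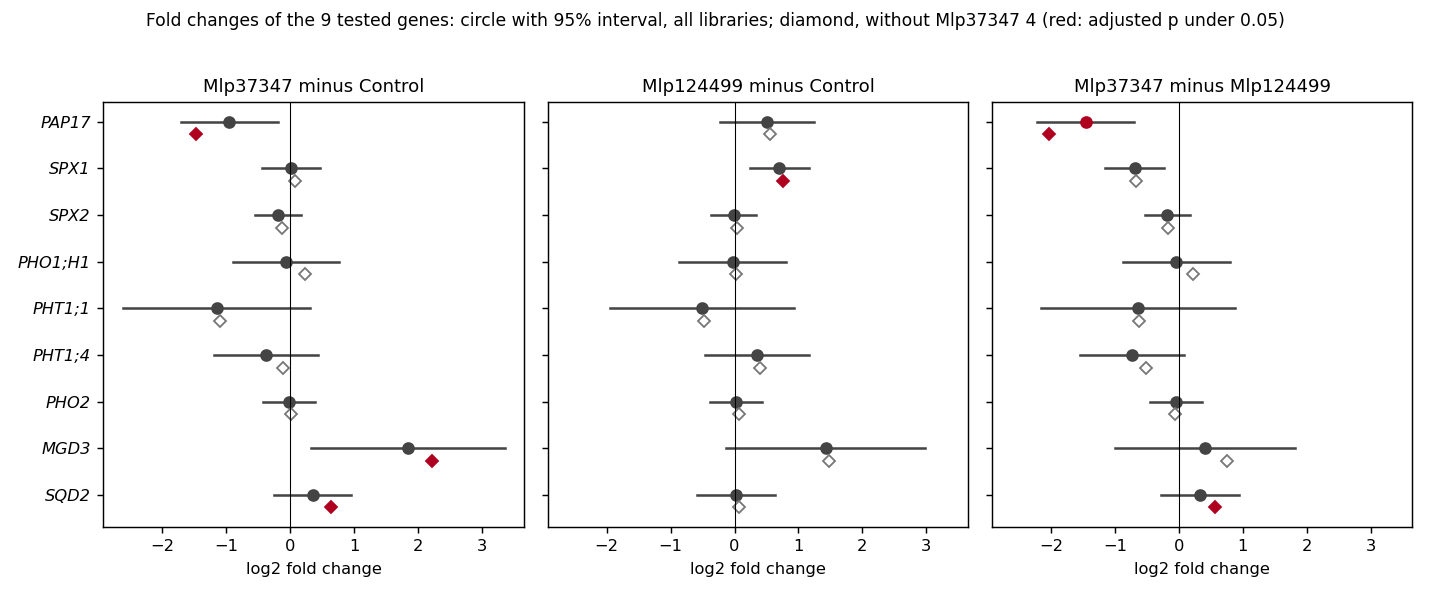
log2 fold changes of the 9 tested genes in the 3 comparisons: circles with 95% intervals use all 12 libraries, diamonds leave out Mlp37347 4, and red marks an edgeR adjusted p under 0.05. With all libraries the single red circle is PAP17 between the effector lines, at -1.46.

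PAP17 (AT3G17790; chromosome 3, 6089381 to 6091231, plus strand, TAIR10.1) stood at 8.23, 11.2, 7.72 and 10.8 CPM in Control 1 to 4. It stood at 3.13, 3.87, 2.92 and 9.94 CPM in Mlp37347 1 to 4 and at 11.8, 11.9, 17.0 and 13.3 CPM in Mlp124499 1 to 4. Every Mlp124499 library was above every Control and every Mlp37347 library, and Mlp37347 4 lay inside the Control range while the other Mlp37347 libraries lay below it. PAP17 fell from 13.5 ± 2.42 CPM in Mlp124499 to 4.97 ± 3.34 CPM in Mlp37347 (SD, n = 4 each), 0.364 times the Mlp124499 level. On the log2 scale the difference was -1.46 ± 0.35 (SE, edgeR adjusted p = 0.0476). Against the Control mean of 9.48 ± 1.76 CPM (SD, n = 4), Mlp37347 gave -0.95 ± 0.35 (edgeR adjusted p = 0.110) with a 95% interval of -1.71 to -0.20, and -0.32 with the mate inner distance in the model (adjusted p = 0.669). Mlp124499 gave 0.50 ± 0.34 against Control (edgeR adjusted p = 0.558).

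The call on PAP17 sat at the edge of the threshold. It was kept without Mlp37347 4, where the fold change was -2.03 ± 0.22 (edgeR adjusted p = 2.09e-04), and lost without any 1 of the other 11 libraries (adjusted p = 0.0516 to 0.161). It was also lost with DESeq2 size factors (adjusted p = 0.0515), with no filter on low counts (0.0550), with only the libraries of the groups compared (0.141) and with the mate inner distance in the model (-0.79, adjusted p = 0.313). Without Mlp37347 4, PAP17 was called lower in Mlp37347 than in Control too (-1.48 ± 0.21, edgeR adjusted p = 8.63e-04). The log2 fold change between the effector lines kept its sign in all 24 settings, from -2.04 to -0.79. PAP17 shares 122 of its 1658 exon bases with AT3G17800 on the opposite strand, and the sources used here do not give whether the authors counted by strand. AT3G17800 stood at 107 to 140 CPM in Control, at 56.4, 64.4, 62.2 and 136 CPM in Mlp37347 1 to 4 and at 76.4 to 155 CPM in Mlp124499. Its log2 fold change between the effector lines was -0.41 (edgeR adjusted p = 0.527). Part of the PAP17 reads could come from that gene, and this was not tested.

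SPX1, SPX2 and SPX3 are small proteins made up mainly of an SPX domain, which binds inositol pyrophosphates, and SPX1 and SPX2 hold PHR1 back when phosphate is ample. SPX1 (AT5G20150; chromosome 5, 6802282 to 6803655, plus strand) stood at 10.1, 5.47, 6.91 and 10.3 CPM in Control 1 to 4. In Mlp37347 1 to 4 it stood at 8.25, 8.32, 8.77 and 7.72 CPM, and in Mlp124499 1 to 4 at 12.4, 12.9, 12.2 and 15.9 CPM. The Mlp124499 libraries were all above the others, and those of Mlp37347 all lay within the Control range. Mlp124499 averaged 13.3 ± 1.73 CPM against 8.20 ± 2.40 CPM in Control (SD, n = 4 each), so that the log2 fold change was 0.70 ± 0.21, with a 95% interval of 0.24 to 1.16 (edgeR adjusted p = 0.0875). The difference of Mlp37347 from Mlp124499 was -0.69 ± 0.21 (edgeR adjusted p = 0.106), and that of Mlp37347 from Control was 0.01 ± 0.21 (adjusted p = 0.982; 95% interval -0.45 to 0.47). SPX1 passed the threshold in Mlp124499 against Control without Mlp37347 4 (0.75, edgeR adjusted p = 0.0459), and DESeq2 called it as well (adjusted p = 0.0245).

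SPX2 (AT2G26660; chromosome 2, 11338752 to 11340950, plus strand) varied least among the members. It stood at 12.01 to 14.6 CPM in Control, 11.2 to 12.5 CPM in Mlp37347 and 10.8 to 16.3 CPM in Mlp124499, with overlapping ranges. Its log2 fold change was -0.19 in Mlp37347 against Control (edgeR adjusted p = 0.507; 95% interval -0.54 to 0.16) and -0.01 in Mlp124499 against Control (adjusted p = 0.985). SPX3 (AT2G45130; chromosome 2, 18606410 to 18607853, plus strand), among the most strongly induced genes of phosphate starvation, had 1, 0, 0 and 4 counts in Control 1 to 4. Mlp37347 1 to 4 had 1, 0, 1 and 0 counts of it, and Mlp124499 1 to 4 had 4, 0, 0 and 1. The highest level was 0.363 CPM, in Mlp124499 1, and no fold change is given because most libraries were under the floor of 3 counts.

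P1BS, searched as GNATATNC, is a palindrome and reads the same on both strands. It was looked for upstream of the annotated gene starts because it is the site through which PHR1 acts on this pathway. In the 250 bases before the start, 1 of the 10 members, SPX3, held it, beside 11 of the 47 other pathway genes and 1498 of 27443 promoters (5.46%). In 1000 bases it was found in 5 of the 10, SPX1, SPX3, PHT1;1, PHO2 and SQD2, beside 25 of the 47 and 20.25% of all promoters. PAP17, SPX2, PHO1;H1, PHT1;4 and MGD3 had no match in that window. These are matches of letters, not measured binding sites. The 7 matches are shown with 11 bases on each side, from the RefSeq TAIR10.1 genome, read 5′ to 3′ on the strand of the gene, with the motif in capitals. They are given so that the spacing and the variable bases of the motif can be compared between genes.
SPX1, chr5:6801536-6801565, plus strand, 727 bases before the start: tttcctatcaaGAATATTCcatggaatcca
SPX3, chr2:18606186-18606215, plus strand, 205 bases before: tattagagaccGAATATGCcagaggatttg
SPX3, chr2:18606309-18606338, plus strand, 82 bases before: gctaaagctaaGCATATCCgctttcatatt
PHT1;1, chr5:17402926-17402955, minus strand, 778 bases before: tatgttctcgcGAATATCCtatgtttttcg
PHT1;1, chr5:17402908-17402937, minus strand, 760 bases before: ctatgtttttcGAATATGCttttttaaaat
PHO2, chr2:14283621-14283650, minus strand, 518 bases before: aacgaattaacGTATATCCttttttttttt
SQD2, chr5:90439-90468, minus strand, 332 bases before: ttatgtgaagcGAATATTCattggaataga
SPX1 and SQD2 shared the same 8 letters, GAATATTC, and the PHT1;1 matches lay close enough that their flanks overlap. SPX3, with both of its matches nearest to the start, was the least abundant member, and PHO2, with 1 match, the most abundant. PAP17, the member called between the effector lines, had none in this window. Any relation of these matches to level or to fold change was not tested.

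The transport genes showed no difference past the threshold. PHO1;H1 (AT1G68740; chromosome 1, 25812449 to 25816983, minus strand), a homologue of the root exporter PHO1, stood at 2.26, 2.86, 2.82 and 3.18 CPM in Control 1 to 4. In Mlp37347 1 to 4 it stood at 3.22, 2.38, 4.09 and 0.976 CPM, with the lowest value of all 12 libraries in Mlp37347 4, and in Mlp124499 1 to 4 at 2.99, 2.30, 1.70 and 3.96 CPM. All ranges overlapped, and the log2 fold changes against Control were -0.07 (Mlp37347, edgeR adjusted p = 0.937) and -0.03 (Mlp124499, adjusted p = 0.984).

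PHT1;1 (AT5G43350; chromosome 5, 17399769 to 17402158, minus strand) and PHT1;4 (AT2G38940; chromosome 2, 16257157 to 16260253, plus strand) are high-affinity phosphate importers of the plasma membrane, expressed mainly in roots. PHT1;1 stood at 0.265, 0.846, 0.873 and 3.52 CPM in Control 1 to 4. Its range was 0.251 to 1.03 CPM over Mlp37347 and 0.310 to 1.82 CPM over Mlp124499. Control 4 was the highest library and the groups overlapped. The log2 fold change in Mlp37347 against Control was -1.15 with a 95% interval of -2.62 to 0.32 (edgeR adjusted p = 0.314), and without Control 4 it was -0.07 (adjusted p = 0.9605). The counts behind these levels were 2 to 137 per library in Control and 3 to 20 in Mlp37347. PHT1;1 also shares 542 of its 1715 exon stretches of 100 bases (31.6%) with its neighbour PHT1;2, so reads may be split between them. PHT1;2 itself was at 0.133 to 1.08 CPM in Control, up to 0.310 CPM in Mlp37347 and up to 0.519 CPM in Mlp124499, and did not enter the test.

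PHT1;4 was more abundant, at 4.65, 7.55, 4.70 and 6.93 CPM in Control 1 to 4. It stood at 4.74, 6.87, 4.59 and 2.04 CPM in Mlp37347 1 to 4 and at 6.80, 6.48, 4.41 and 12.8 CPM in Mlp124499 1 to 4. The lowest and the highest value of the 12 libraries were both in libraries numbered 4, of Mlp37347 and Mlp124499, and the other 10 lay between 4.41 and 7.55 CPM. The log2 fold change was -0.38 in Mlp37347 against Control (edgeR adjusted p = 0.569), 0.35 in Mlp124499 against Control (0.770) and -0.73 between the effector lines (0.342; 95% interval -1.55 to 0.08). Without Mlp37347 4 the first was -0.11 (edgeR adjusted p = 0.836), and without both effector libraries numbered 4 the other comparisons gave 0.02 (0.979) and -0.13 (0.754).

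PHO2 (AT2G33770; chromosome 2, 14277558 to 14283113, minus strand) stood at 204, 221, 192 and 233 CPM in Control 1 to 4. It stood at 196, 236, 198 and 213 CPM in Mlp37347 1 to 4 and at 261, 254, 163 and 190 CPM in Mlp124499 1 to 4. The Mlp37347 libraries spread as the Control libraries did, and those of Mlp124499 lay on both sides of them. The group means were 213 ± 18.1, 211 ± 18.6 and 217 ± 48.2 CPM (SD, n = 4 each). The log2 fold changes against Control were -0.02 (Mlp37347, 95% interval -0.42 to 0.39, edgeR adjusted p = 0.974) and 0.03 (Mlp124499, -0.38 to 0.43, adjusted p = 0.973). PHO2 was the most abundant of the 10 genes, and these intervals were among the narrowest.

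MGD3 and SQD2 make the non-phosphorus lipids that stand in for phospholipids. MGD3 (AT2G11810; chromosome 2, 4743162 to 4746813, plus strand), a monogalactosyldiacylglycerol synthase of the outer plastid envelope, stood at 0.265, 0.326, 0.0671 and 0.462 CPM in Control 1 to 4, from 1 to 18 counts. In Mlp37347 1 to 4 it stood at 1.69, 1.24, 1.25 and 0.0887 CPM, the last from 1 count, and in Mlp124499 1 to 4 at 0.454, 0.328, 1.24 and 1.23 CPM. The first 3 Mlp37347 libraries and Mlp124499 3 and 4 were all above the whole Control range, and Mlp37347 4 lay within it. The log2 fold change against Control was 1.84 ± 0.70 in Mlp37347 (edgeR adjusted p = 0.123; 95% interval 0.32 to 3.36) and 1.43 in Mlp124499 (adjusted p = 0.366; -0.13 to 2.99). Without Mlp37347 4 it was 2.22 ± 0.55 in Mlp37347 against Control (edgeR adjusted p = 0.0149).

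SQD2 (AT5G01220; chromosome 5, 86543 to 90117, minus strand), which makes sulfoquinovosyldiacylglycerol in the last step of sulfolipid synthesis, stood at 46.5, 50.5, 37.0 and 52.3 CPM in Control 1 to 4. In Mlp37347 1 to 4 it stood at 70.7, 72.9, 68.9 and 25.1 CPM, and in Mlp124499 1 to 4 at 45.7, 40.2, 55.7 and 47.5 CPM. Mlp37347 1, 2 and 3 were above all other libraries and Mlp37347 4 was below all of them. With all libraries the log2 fold change in Mlp37347 against Control was 0.35 ± 0.28 (edgeR adjusted p = 0.469). Without Mlp37347 4 it was 0.64 ± 0.16 against Control (edgeR adjusted p = 0.0137) and 0.57 ± 0.16 against Mlp124499 (adjusted p = 0.0310). With the mate inner distance in the model and all libraries, the sign turned for both lipid genes in Mlp37347 against Control, to -0.60 for MGD3 (edgeR adjusted p = 0.775) and -0.74 for SQD2 (0.261). That fit leans in part on the contrast of Mlp37347 4 with the other Mlp37347 libraries, and how large a part was not computed. Mlp124499 differed from Control in SQD2 by 0.02, with a 95% interval of -0.58 to 0.63 (edgeR adjusted p = 0.985).

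Of 47 other genes of the phosphate pathway, listed by role, 35 were tested. In Mlp37347 against Control 3 were called higher and 4 lower, in Mlp124499 against Control 0 higher and 1 lower, and between the effector lines 0 higher and 1 lower in Mlp37347. At an unadjusted p under 0.05 there were 13, 9 and 6 of the 35, beside 25.3%, 16.1% and 17.6% of all genes. Their median log2 fold changes were 0.16, 0.07 and 0.18. In shares of the 35, the first comparison gave 8.57% higher and 11.4% lower, against 3.19% and 5.42% of all genes. Mlp124499 against Control gave 0% higher and 2.86% lower, against 1.56% and 2.71% of all genes. Mlp37347 against Mlp124499 gave 0% and 2.86%, against 1.1% and 1.59%. Among both the lipid genes and the regulators, Mlp37347 had genes called in each direction against Control. Where ranges of libraries are said below not to overlap, this held for 19.2% of all genes between Mlp37347 and Control. Between Mlp124499 and Control it held for 11%, and between the effector lines for 10.9%. With the mate inner distance in the model, VIH2 alone of the 7 genes called in Mlp37347 against Control stayed past the threshold.

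**Figure D3:**
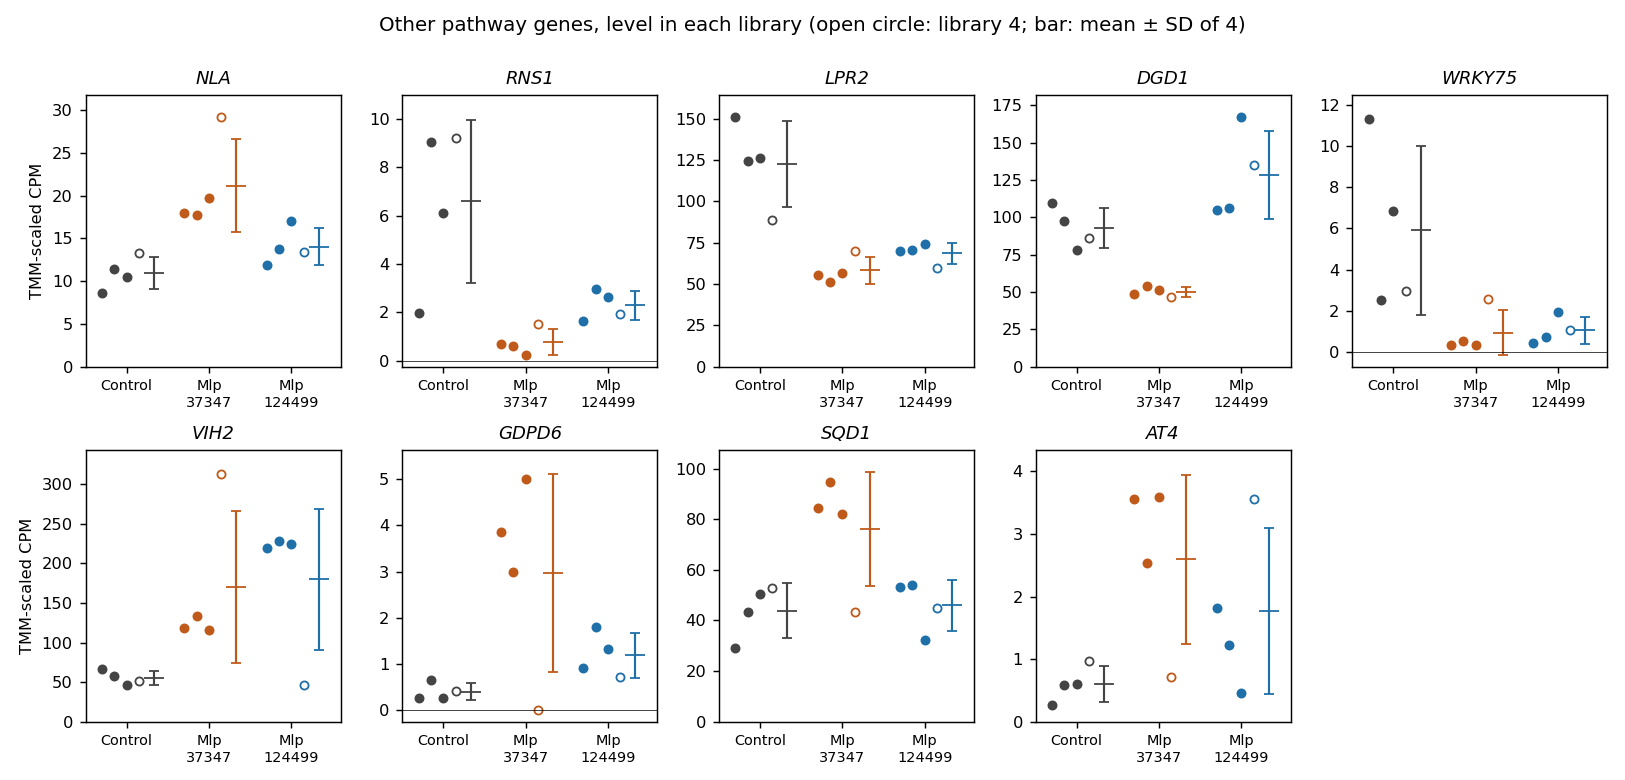
Level of 9 other phosphate-pathway genes in every library, in TMM-scaled CPM, by line; points are libraries, open circles mark library 4, and bars give the mean ± SD of 4. RNS1, LPR2 and DGD1 were lower in all 4 Mlp37347 libraries than in any Control library, whereas for GDPD6, SQD1 and AT4 library 4 of Mlp37347 stood apart from the other 3. Between Mlp37347 and Control the ranges were apart for 19.2% of all genes.

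RNS1 (AT2G02990), a secreted ribonuclease that starvation induces to free phosphate from RNA, stood at 1.99, 9.05, 6.11 and 9.19 CPM in Control 1 to 4. It stood at 0.677, 0.620, 0.251 and 1.51 CPM in Mlp37347 1 to 4 and at 1.63 to 2.95 CPM in Mlp124499. It fell in Mlp37347 against Control by 3.14 on the log2 scale (SE 0.53, edgeR adjusted p = 0.00438). Mlp124499 against Control gave -1.54 for RNS1 (SE 0.48), which missed the threshold with edgeR (adjusted p = 0.102) and passed it with DESeq2 (0.0299). LPR2 (AT1G71040), a multicopper oxidase related to the root low-phosphate gene LPR1, stood at 88.5 to 151 CPM in Control, 51.0 to 69.8 CPM in Mlp37347 and 59.5 to 74.0 CPM in Mlp124499. LPR2 fell in both effector lines, by 1.07 in Mlp37347 (SE 0.19, edgeR adjusted p = 0.00526) and by 0.84 in Mlp124499 (SE 0.19, adjusted p = 0.0249). RNS1 and LPR2 kept their call in Mlp37347 without any 1 of the 12 libraries, and both lost it with the mate inner distance in the model (RNS1 -2.96, adjusted p = 0.0561, and LPR2 -0.55, adjusted p = 0.207). LPR2 in Mlp124499 lost its call without any 1 of 9 libraries: Control 1, 2 or 3, Mlp37347 1, 2 or 3, or Mlp124499 1, 2 or 3 (adjusted p = 0.0502 to 0.0991).

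DGD1 (AT3G11670), which makes the bulk of the galactolipid digalactosyldiacylglycerol, stood at 78.3 to 109 CPM in Control. It stood at 48.4, 54.3, 51.3 and 46.5 CPM in Mlp37347 1 to 4 and at 105, 106, 167 and 135 CPM in Mlp124499 1 to 4. In this gene Mlp37347 4 sat with the other Mlp37347 libraries, all below every Control and every Mlp124499 library. DGD1 fell by 0.89 in Mlp37347 against Control (SE 0.19, edgeR adjusted p = 0.0134) and by 1.35 against Mlp124499 (SE 0.19, adjusted p = 0.00325). The call against Mlp124499 was kept without any 1 library and lost with the mate inner distance in the model (adjusted p = 0.0605), and the call against Control was lost without Mlp37347 1 (adjusted p = 0.0607) or Mlp37347 3 (0.0515).

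Among the lipid genes, MGD1 and MGD2, relatives of MGD3, were not called. MGD1, the main galactolipid synthase of the inner envelope, stood at 103 to 109 CPM in Mlp37347 and 72.8 to 99.1 CPM in Control, without overlap (log2 fold change 0.35, edgeR adjusted p = 0.166), and its locus overlaps another on the same strand. MGD2 stood at 4.63 to 6.60 CPM in Control and 3.02 to 8.21 CPM in Mlp37347 (0.14, adjusted p = 0.805). SQD1 (AT4G33030), the enzyme before SQD2 in sulfolipid synthesis, stood at 28.9, 43.5, 50.5 and 52.7 CPM in Control 1 to 4 and at 84.5, 94.6, 82.2 and 43.5 CPM in Mlp37347 1 to 4. As with SQD2, Mlp37347 1, 2 and 3 were above all Control libraries and Mlp37347 4 was not. SQD1 gave 0.79 against Control (edgeR adjusted p = 0.0854) and 1.02 ± 0.22 without Mlp37347 4 (adjusted p = 0.00761), and turned to -0.11 with the mate inner distance in the model (0.879). GDPD6 (AT5G08030), a glycerophosphodiester phosphodiesterase gene, stood at 0.265 to 0.651 CPM in Control and at 3.85, 2.996, 5.01 and 0 CPM in Mlp37347 1 to 4. In Mlp124499 1 to 4 it stood at 0.907, 1.80, 1.32 and 0.713 CPM, all above the Control range. Mlp124499 against Control gave 1.51 (edgeR adjusted p = 0.427), and 1.55 without Mlp37347 4 (adjusted p = 0.0354). GDPD6 rose in Mlp37347, where the range overlapped that of Control, by 2.84 ± 0.82 (SE, edgeR adjusted p = 0.0492). That call was lost without any 1 of the 4 Control libraries, Mlp37347 1, 2 or 3, or Mlp124499 1, 2 or 3 (adjusted p = 0.0604 to 0.130). With the mate inner distance in the model the GDPD6 fold change in Mlp37347 turned to -0.54 (adjusted p = 0.865), and the gene overlaps another on the opposite strand.

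Among the regulators, WRKY75 (AT5G13080), a transcription factor induced by phosphate starvation and by senescence, stood at 11.3, 2.54, 6.85 and 2.95 CPM in Control 1 to 4. It stood at 0.339, 0.568, 0.334 and 2.57 CPM in Mlp37347 1 to 4 and at 0.454 to 1.94 CPM in Mlp124499. WRKY75 fell in Mlp37347 against Control by 2.67 (SE 0.72, edgeR adjusted p = 0.0370), and the call was lost without Control 1 or 3, Mlp37347 1, 2 or 3, or Mlp124499 2 (adjusted p = 0.0552 to 0.122). With the mate inner distance in the model the WRKY75 difference was -0.71 (adjusted p = 0.527). Against Control, Mlp124499 gave -2.44 for WRKY75 (SE 0.71, edgeR adjusted p = 0.0763), which missed the threshold, with every library below the Control range. DESeq2 called WRKY75 lower there (adjusted p = 0.00967), and the effector lines differed by -0.23 (edgeR adjusted p = 0.908). NLA (AT1G02860), a ubiquitin ligase that removes PHT1 transporters alongside PHO2, stood at 8.63 to 13.2 CPM in Control, at 18.0, 17.8, 19.7 and 29.2 CPM in Mlp37347 1 to 4 and at 11.9 to 17.0 CPM in Mlp124499. It rose in Mlp37347 by 0.94 ± 0.21 (SE, edgeR adjusted p = 0.0166), with every Mlp37347 library above every library of the other lines. The NLA call was lost without Control 3 (adjusted p = 0.0551). NLA overlaps AT1G04147 and AT1G02870 on the opposite strand, over 125 of its 1547 exon bases. AT1G02870 was at 9.16 to 17.2 CPM in Control, 10.95 to 12.7 CPM in Mlp37347 and 14.7 to 21.3 CPM in Mlp124499.

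VIH2 (AT3G01310), a kinase that makes inositol pyrophosphates, stood at 45.8 to 66.2 CPM in Control. It stood at 119, 133, 116 and 313 CPM in Mlp37347 1 to 4 and at 220, 228, 224 and 46.8 CPM in Mlp124499 1 to 4. All Mlp37347 libraries and 3 of the 4 Mlp124499 libraries were above the Control range. VIH2 rose in Mlp37347 by 1.62 ± 0.45 (SE, edgeR adjusted p = 0.0445), and the call was lost without any 1 library other than Mlp124499 4 (adjusted p = 0.0516 to 0.119). Mlp124499 differed from Control by 1.70, which missed the threshold (edgeR adjusted p = 0.0563), and by 2.06 without Mlp124499 4 (adjusted p = 0.00235). PHR1, the central transcription factor, stood at 41.7 to 59.4 CPM in Control, 52.1 to 60.9 CPM in Mlp37347 and 43.2 to 53.2 CPM in Mlp124499, with log2 fold changes against Control of 0.04 (edgeR adjusted p = 0.902) and -0.19 (adjusted p = 0.668). SPX4, another gene of an SPX-domain protein, stood at 16.3 to 17.6 CPM in Control, 17.1 to 30.3 CPM in Mlp37347 and 9.53 to 18.3 CPM in Mlp124499 (0.30 and -0.28, adjusted p = 0.465 and 0.675).

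AT4 (AT5G03545), a non-coding RNA that soaks up the microRNA acting on PHO2, stood at 0.265, 0.586, 0.604 and 0.976 CPM in Control 1 to 4 and at 3.55, 2.53, 3.59 and 0.710 CPM in Mlp37347 1 to 4. In Mlp124499 1 to 4 it stood at 1.81, 1.23, 0.465 and 3.57 CPM. The log2 fold change in Mlp37347 against Control was 1.99 (edgeR adjusted p = 0.0623) and 2.32 without Mlp37347 4 (adjusted p = 0.0118). With the mate inner distance in the model it was 0.03 (adjusted p = 0.989). IPS1, the related non-coding RNA, was at 0 counts in all 12 libraries, as was the transporter gene PHT1;3, which allows a level up to the floor of 3 counts in each library. PHO1, the exporter itself, stood at 18.8 to 30.7 CPM in Control, 24.6 to 38.8 CPM in Mlp37347 and 15.4 to 41.0 CPM in Mlp124499. PHF1, which lets PHT1 proteins leave the endoplasmic reticulum, stood at 8.12 to 12.4, 7.36 to 13.5 and 9.35 to 13.3 CPM in the same order. Neither gene was called, nor were the phosphatase genes PECP1, at 0.0887 to 1.34 CPM, and PS2, at 0.130 to 2.25 CPM over the 12 libraries.

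**Figure D4:**
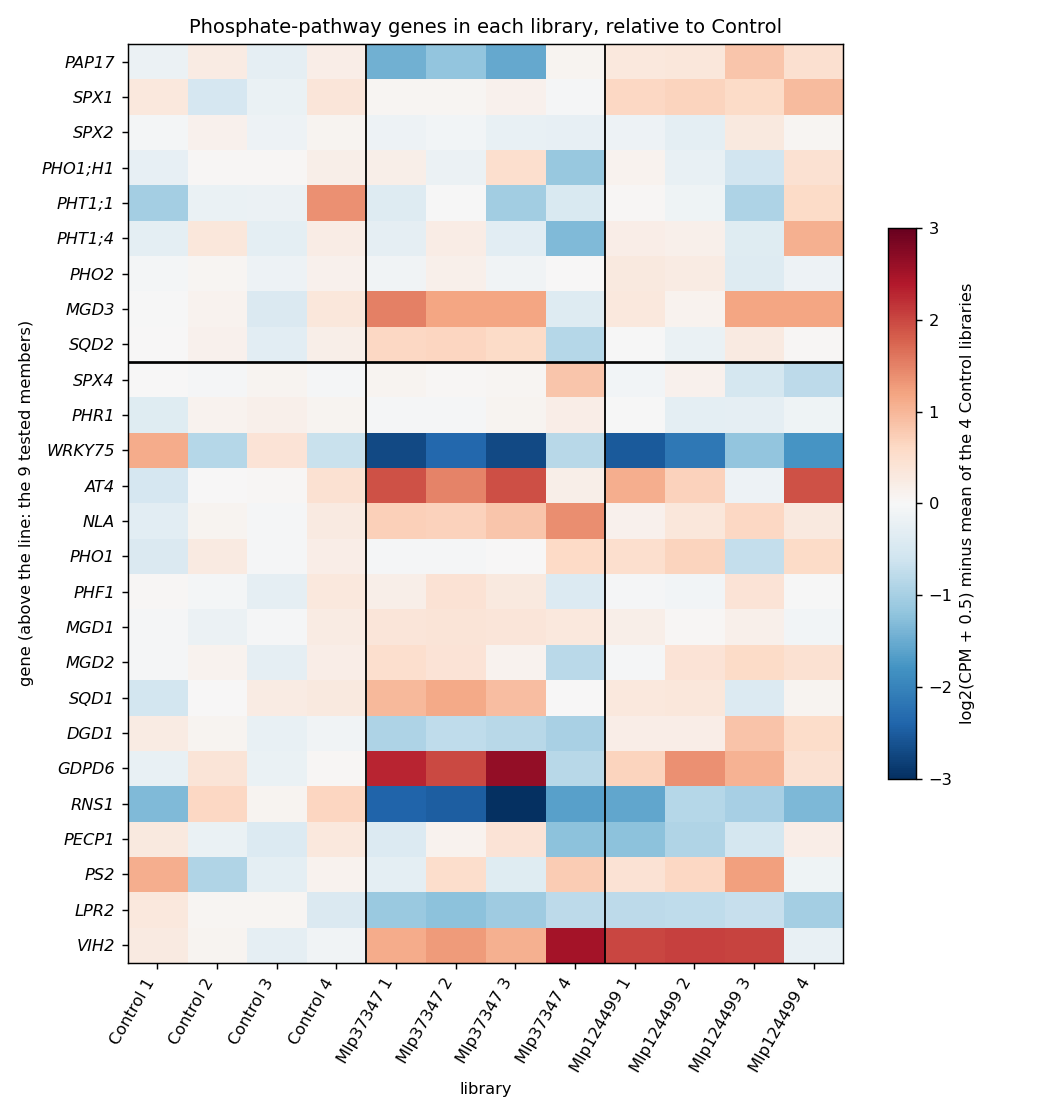
log2(CPM + 0.5) of the 9 tested members (above the line) and 17 other pathway genes in each library, minus the mean of the 4 Control libraries; red is higher and blue lower. In Mlp37347 1, 2 and 3 PAP17, WRKY75 and RNS1 are blue and MGD3, SQD2, SQD1, AT4 and GDPD6 red, whereas in Mlp37347 4 PAP17 is near 0 and SQD2 and GDPD6 are blue. In the Mlp124499 libraries WRKY75 and RNS1 are blue and GDPD6 red as well.

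Library 4 of Mlp37347 thus stood with its line in some genes and apart from it in others. It lay just below the range of the other Mlp37347 libraries in DGD1, MGD1, SPX1 and SPX2. It lay inside or beyond the Control range on the far side in PAP17, MGD3, SQD2, SQD1, AT4, GDPD6, WRKY75 and ZAT6. ZAT6 (AT5G04340) stood at 10.2 to 25.2 CPM in Control and at 2.62, 8.16, 2.34 and 34.8 CPM in Mlp37347 1 to 4. Its log2 fold change against Control was -0.65 with all libraries (edgeR adjusted p = 0.592) and -2.04 without Mlp37347 4 (adjusted p = 0.00790). Without Mlp37347 4, edgeR called 4 of the 35 other pathway genes tested, AT4, NLA, SQD1 and GDPD6, higher in Mlp37347 than in Control. It called 5, WRKY75, ZAT6, DGD1, RNS1 and LPR2, lower. Of all genes in that fit, 11.6% were called higher and 11.1% lower. Those shares are not far from what 4 and 5 of 35 amount to.

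The genes whose profile over the 12 libraries was most like that of a member were ranked by the root mean square difference between centred log2(CPM + 0.5) values, among 18214 genes of at least 1 CPM on average. They are given for the 3 members that varied most, as a description. PAP17, with an SD of 0.78 over the libraries, was closest to AT5G12050 (0.187), NF-YB2 (AT5G47640, 0.191) and ENODL8 (AT1G64640, 0.200). NF-YB2, a subunit of a CCAAT-binding factor, stood at 14.7 to 20.0 CPM in Control, at 8.63, 7.23, 7.10 and 18.6 CPM in Mlp37347 1 to 4 and at 21.2 to 30.8 CPM in Mlp124499. It repeated the low values of Mlp37347 1, 2 and 3 and the return of library 4 to the Control level. MGD3 (SD 0.69) was closest to AT2G17280 (0.259), the cellulose synthase-like gene CSLG3 (AT4G23990, 0.261) and the annexin gene ANNAT4 (AT2G38750, 0.261). CSLG3 stood at 3.72 to 6.55 CPM in Control, at 13.2, 14.6, 12.4 and 4.26 CPM in Mlp37347 1 to 4 and at 6.81 to 11.5 CPM in Mlp124499. PHT1;1 (SD 0.69) had no close match, with AT3G23200 (0.391), AT3G59150 (0.392) and AT1G75580 (0.392) nearest. None of these genes was a member or on the list of other pathway genes, and libraries share depth and composition, so likeness here carries no p-value.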

How the data were processed

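The deposited tables give, for each of 12 libraries, whole-number counts of read pairs per locus, not normalized. The authors' trimming used Trimmomatic, alignment to TAIR10 used TopHat2 2.0.14, and overlaps of reads with transcripts were counted in R 3.2.5 in union mode, per the submitters' processing notes and design text. The handling of strand and of multiply aligned reads is not given in the sources used here. A further table deposited by the authors gives numbers of reads and the mate inner distance per library, and 0 columns were left unused. The count tables carry no coordinates. Gene positions, exon lengths and promoter sequence are from RefSeq TAIR10.1, to which 99.1% of the loci matched.

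Levels here are TMM-scaled counts per 1000000 (CPM). Genes passing filterByExpr entered 1 quasi-likelihood fit of all 12 libraries (edgeR 4.0.16, R 4.3.3) with 1 coefficient per line and no covariate. Benjamini-Hochberg adjustment ran over all 19090 genes, with a threshold of 0.05. A standard error is the size of the log2 fold change over the square root of F. The steps were tested on simulated counts, drawn independently for each library at the spread fitted to these data. The simulated counts held no library set apart from its line and no effect of the mate inner distance, so that test does not bear on either. Alternatives were other filters, other scalings, DESeq2 1.42.0, limma 3.58.1 voom with sample weights, only the groups compared, a replicate block, the mate inner distance as a covariate and leaving out libraries. DESeq2's adjusted p was missing for some genes, which were left out of its shares.

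The 10 members, the 47 other pathway genes and the tests were chosen with earlier results of these data known. Named were all members, every other pathway gene past the threshold, up to 8 per comparison, and PHR1, SPX4, IPS1, AT4, PHO1, PHF1, NLA, PHT1;2, PHT1;3, MGD1, MGD2, SQD1, PECP1 and PS2. ZAT6 was named after its values were seen, as were the genes overlapping a named one.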

Additional observations from a re-analysis of the deposited data

Results flagged for a closer look

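Among 78 groups of 4 libraries of the tested members and other named pathway genes, 10 held a library whose gap to the nearest of the others, divided by the group's range, was above the 95% critical value of Dixon's test. Chance gives about 1 such group in 20 where groups are independent, and these 78 are genes read from the same 12 libraries, so the count of 10 is not set against that rate. Of the 10, 7 were in Mlp37347 and all of those were library 4.

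PAP17 was at 9.94 CPM in Mlp37347 4, with the other Mlp37347 libraries at 2.92 to 3.87 CPM. SQD2 was at 25.1 CPM there, below 68.9 to 72.9 CPM in the others. In the same library SPX4 stood at 30.3 CPM (others 17.1 to 17.6), WRKY75 at 2.57 CPM (0.334 to 0.568) and NLA at 29.2 CPM (17.8 to 19.7). PHO1 stood at 38.8 CPM (24.6 to 25.6) and VIH2 at 313 CPM (116 to 133).

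In Mlp124499, VIH2 in library 4 was at 46.8 CPM and inside the range of Control, against 220 to 228 CPM in the others, and PHF1 was at 13.3 CPM in library 3, against 9.35 to 9.79 CPM. In Control, PHR1 was at 41.7 CPM in library 1, the library with the lowest share of reads aligned, against 56.6 to 59.4 CPM.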

How the results depend on the processing

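Of the 78 log2 fold changes of single genes, 1 turned its sign with a call at stake: GDPD6 in Mlp37347 against Control, at -0.54 once the mate inner distance entered the model (edgeR adjusted p = 0.865). The causes of the changes below were not tested.

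Members called higher in Mlp37347 against Control numbered 0, and 3 with limma voom, 2 without both effector libraries numbered 4 and 0 to 2 when 1 library was left out. Members called lower numbered 0, and 1 with total-count scaling, limma voom or without both libraries numbered 4, and 0 to 1 when 1 library was left out. In each case the left-out library that moved the count was Mlp37347 4. Members called higher in Mlp124499 against Control numbered 0, and 1 with DESeq2 or limma voom and 0 to 1 with 1 library left out. Members called lower in that comparison stayed at 0 in all settings. Between the effector lines, members called higher numbered 0, and 2 with limma voom, 1 without both libraries numbered 4 and 0 to 1 with 1 left out. Members called lower numbered 1, and 0 with DESeq2 size factors, no filter, only the groups compared, the replicate block or the inner distance, 2 with DESeq2, 3 with limma voom and 0 to 1 with 1 left out.

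Other pathway genes called higher in Mlp37347 against Control numbered 3, and 1 with total-count scaling, the replicate block or the inner distance, 7 with DESeq2, 10 with limma voom, 8 without both libraries numbered 4 and 0 to 5 with 1 left out. Those called lower numbered 4, and 10 with limma voom, 2 with the replicate block, 0 with the inner distance, 7 without both libraries numbered 4 and 2 to 5 with 1 left out. In Mlp124499 against Control those higher numbered 0, and 1 with total-count or upper quartile scaling, DESeq2 or the inner distance, 7 with limma voom, 5 without both libraries numbered 4 and 0 to 2 with 1 left out. Those lower numbered 1, and 3 with DESeq2, 11 with limma voom, 0 with the replicate block, 2 with the inner distance or without both libraries numbered 4 and 0 to 3 with 1 left out. Between the effector lines those higher numbered 0, and 11 with limma voom, 5 without both libraries numbered 4 and 0 to 2 with 1 left out. Those lower numbered 1, and 2 with DESeq2, 12 with limma voom, 0 with the inner distance, 5 without both libraries numbered 4 and 1 to 3 with 1 left out. Of all genes, DESeq2 called 7.05% higher and 7.88% lower in Mlp37347 against Control, and limma voom 27.6% and 29.5%. In Mlp124499 against Control the shares were 3.4% and 4.6% with DESeq2 and 16.1% and 20.1% with limma voom. Between the effector lines they were 3.6% and 3.72%, and 27.3% and 27%. The same shares stand beside the members' counts above. Of all genes, total-count scaling called 351 higher and 1900 lower in Mlp37347 against Control. In Mlp124499 against Control it called 284 and 595, and between the effector lines 126 and 545. Upper quartile scaling called 366 and 427 in Mlp124499 against Control, and DESeq2 size factors 202 and 282 between the effector lines. For the other settings, save the fit without Mlp37347 4, no share of all genes is given. Counts without both libraries numbered 4, with the replicate block or with the inner distance therefore have no background.

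Replicate numbers did not pair the libraries: same-numbered libraries of different lines had correlations of their deviations from -0.40 to 0.11, and 0 of 12 were highest with their own number. With the replicate block PAP17 between the effector lines was at -1.59 (edgeR adjusted p = 0.0686). Depth left SPX3, at 0 to 4 counts per library, out of the test.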
